A study of Mus musculus with 7 samples.

Results

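Blood clotting is started by tissue factor and held back by inhibitors that sit on the vessel wall, and the 9 genes described here encode proteins of both sides together with one enzyme that dissolves clots. They were chosen by name as the rows of the deposited count table whose gene symbol was F3, F5, F10, Vwf, Thbd, Procr, Tfpi, Serpine2 or Plat, and all 9 were found among its 20343 complete rows. F3, F5, F10 and Vwf are taken as procoagulant, Thbd, Procr, Tfpi and Serpine2 as anticoagulant, and Plat as fibrinolytic. RNA sequencing of polyadenylated transcripts was done on the apical heart muscle in 7 samples from NSG-DR1 mice, an immunodeficient strain that lacks T, B and natural killer cells of its own and carries a human HLA-DR1 transgene (strain NSG-DRB1*0101 in the labels). The 4 control samples came from untreated mice. The other 3 samples, called transferred below, came from mice that had been given human CD4+ T cells, with the hearts taken 6 weeks later. Transferred hearts are numbered here in the order of the samples, and the label of transferred heart 2 carries a longer number than the others. Its source label holds 1 identifier, as for the others, and a code that begins with other letters than the codes of transferred hearts 1 and 3, with no meaning given. Whether that sample is a single heart or a pool is not stated, so n counts samples, each called a heart below. Age, sex and the number of T cell donors are not given in the sources used here, and p-values measure the spread between these hearts.

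In a healthy heart the endothelium keeps blood fluid. Thrombomodulin and the endothelial protein C receptor turn thrombin into an activator of protein C, tissue factor pathway inhibitor blocks tissue factor and factor Xa, and protease nexin-1 traps thrombin. Tissue factor, held by cardiomyocytes, fibroblasts and other cells outside the vessel lining, triggers the cascade when a vessel leaks. Von Willebrand factor, stored in endothelial cells and platelets, catches platelets at the wall, and tissue plasminogen activator starts fibrin breakdown.

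The analysed part of the table held between 16402194 and 25190580 counts per heart, and 3 counts corresponded to between 0.119 and 0.183 CPM (counts scaled to a common library total). These floors cover counting error only. CPM values below are scaled by TMM (trimmed mean of M values). Cardiomyocyte markers such as Atp2a2 and Myl2 led the profile, and the liver marker Alb had at most 2 counts in any heart. Several marker lists differed between hearts. The summed CPM of 12 macrophage markers, led by C1qa and C1qc, was 518 to 772 in control hearts and 896 to 1362 in transferred hearts. The summed CPM of 5 neutrophil markers, led by S100a9 and S100a8, was 8.87 to 12 in control hearts and 12.2, 259 and 36.7 in transferred hearts 1, 2 and 3. The summed CPM of 4 markers of activated endothelium, Vcam1, Selp, Sele and Ackr1, was 28.3 to 35.3 in control hearts and 52.2, 126 and 56.2 in transferred hearts 1, 2 and 3. Transferred heart 2 was the highest in all 3 of these sums. The summed CPM of 13 general endothelial markers (Kdr, Tek, Cd34 and others, without Cd36 and Fabp4) was 3056 to 3626 in control hearts and 3202 to 3519 in transferred hearts. The ranges of the fibroblast list (Gsn, Col3a1), the mural list (Rgs5, Abcc9) and the lymphatic list (Prox1, Ccl21a) also overlapped between the groups. No marker present in the table was at 0 in all hearts. In such bulk tissue, fewer cells of a type and less RNA per cell cannot be told apart.

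Of the 9 genes, 8 passed the filter on low counts and entered the quasi-likelihood test of edgeR, fitted over 7667 genes. None of the 8 had a Benjamini-Hochberg adjusted p-value under 0.05, a threshold that 0.235% of all tested genes passed (0.13% higher and 0.104% lower). All 8 had a log2 fold change above 0 in transferred against control hearts, from 0.13 to 2.18 with a median of 0.39, where 49.7% of all tested genes were above 0 and their median was -0.002. At an unadjusted p under 0.05 there were 4 members, Serpine2, Tfpi, Vwf and F5, all higher in transferred hearts, against 12.4% of all genes in either direction and 7.17% in the higher and 5.27% in the lower direction. The groups did not overlap for 3 members, Serpine2, Tfpi and Vwf, against 11.2% of all genes in either direction and 5.99% in the higher and 5.22% in the lower direction. F10 was too scarce to pass the filter. The members and lists were chosen with earlier results of these data known, so these counts against all genes are a description.

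**Figure D1:**
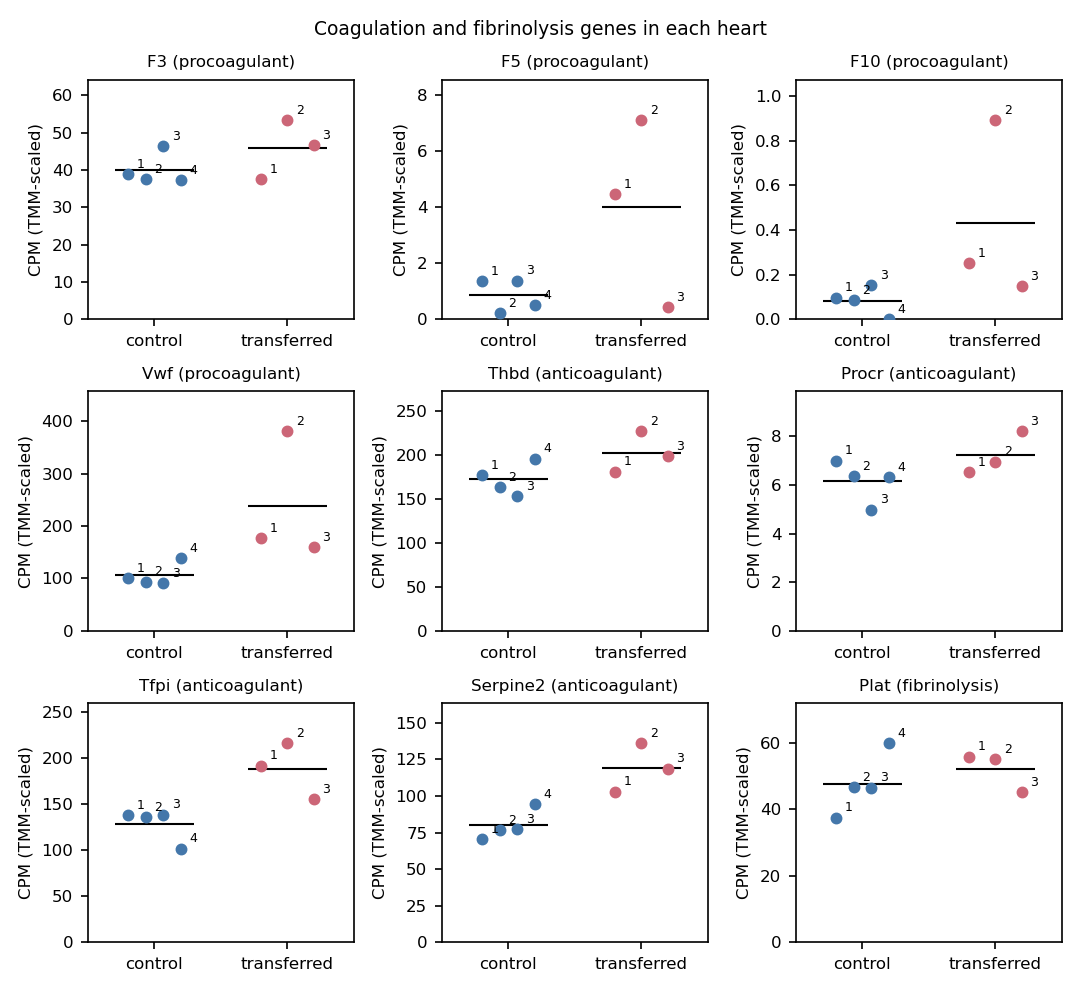
TMM-scaled CPM of each of the 9 genes (vertical axis, from 0) in 4 control and 3 transferred hearts (horizontal axis); points are hearts with their number, and the line is the group mean. Vwf, Tfpi and Serpine2 lay above every control heart in all 3 transferred hearts, whereas F5 was high in transferred hearts 1 and 2 alone.

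F3 encodes tissue factor, the membrane receptor for factor VIIa that starts coagulation. The gene lies on chromosome 3 from 121723537 to 121735052 (GRCm38, plus strand), and counts were taken over its combined exons, as for all genes here. F3 was at 39.0, 37.6, 46.5 and 37.4 CPM in control hearts 1 to 4 and at 37.5, 53.4 and 46.7 CPM in transferred hearts 1 to 3. The groups overlapped, with transferred heart 1 at the level of the lowest control hearts. The mean was 40.1 ± 4.31 CPM (SD, n = 4) against 45.9 ± 7.98 CPM (SD, n = 3). The log2 fold change was 0.19 with a 95% confidence interval from -0.10 to 0.49 (edgeR adjusted p = 0.608). Without transferred heart 2 it was 0.07, and without transferred heart 1 it was 0.32.

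Tfpi encodes tissue factor pathway inhibitor, the direct brake on the tissue factor and factor VIIa complex. It lies on chromosome 2 from 84432855 to 84476775 (minus strand). Tfpi was at 138, 136, 139 and 102 CPM in the control hearts and at 192, 216 and 155 CPM in the transferred hearts. Every transferred heart was above every control heart, and control heart 4 was the lowest of all. Tfpi averaged 129 ± 18.0 CPM (SD, n = 4) in the control and 188 ± 30.8 CPM (SD, n = 3) in the transferred group. On the log2 scale the difference was 0.54 (SE 0.14), with an edgeR adjusted p of 0.142. DESeq2 gave an adjusted p of 0.0122 for the same difference, over a range of 0.0122 to 0.401 in all alternatives. Without transferred heart 2 the difference was 0.43 (edgeR adjusted p = 0.401), and without transferred heart 3 it was 0.66 (edgeR adjusted p = 0.0460).

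Serpine2 encodes protease nexin-1, a serpin that inhibits thrombin and also plasminogen activators, and is made by fibroblasts and smooth muscle as well as vascular cells. It lies on chromosome 1 from 79794317 to 79858665 (minus strand). Serpine2 was at 70.8, 76.8, 77.5 and 94.4 CPM in the control hearts and at 103, 136 and 119 CPM in the transferred hearts. The groups did not overlap. The mean was 79.9 ± 10.1 CPM (SD, n = 4) against 119 ± 16.6 CPM (SD, n = 3), which on the log2 scale differed by 0.58 (SE 0.12). It had the smallest p of the 8 tested members, and the edgeR adjusted p was 0.0792. The adjusted p was 0.00167 with DESeq2 and 0.0154 when edgeR tested all genes with at least 1 count, over a range of 0.00167 to 0.296 in all alternatives. When single hearts were left out, the estimate for Serpine2 stayed between 0.47, without transferred heart 2, and 0.68, without transferred heart 1.

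Upstream sequence was printed for tissue factor, for its inhibitor, for the gene with the smallest p and for F5, as a description of what lies in front of them. RefSeq promoter entries (GRCm38.p6) were found for 6 of the 9 genes, F3, F5, F10, Procr, Tfpi and Serpine2. The 250 bases before the start that each promoter entry gives were searched on both strands for GGGCGG (the GC box, bound by factors of the Sp1 family) and TGANTCA (the AP-1 motif). For Tfpi and Procr that start differs from the gene boundary given here, and their windows reach into the gene. Capitals mark the matches. The windows are chr3:121723287-121723536 on the plus strand for F3, chr2:84476760-84477009 on the minus strand for Tfpi (the first of its 2 entries), chr1:79858666-79858915 on the minus strand for Serpine2 and chr1:164151585-164151834 on the plus strand for F5.
F3: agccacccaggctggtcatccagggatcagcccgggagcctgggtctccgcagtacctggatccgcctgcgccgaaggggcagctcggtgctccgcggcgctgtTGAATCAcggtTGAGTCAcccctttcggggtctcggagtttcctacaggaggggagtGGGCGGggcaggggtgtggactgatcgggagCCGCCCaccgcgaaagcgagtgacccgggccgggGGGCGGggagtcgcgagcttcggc
Tfpi: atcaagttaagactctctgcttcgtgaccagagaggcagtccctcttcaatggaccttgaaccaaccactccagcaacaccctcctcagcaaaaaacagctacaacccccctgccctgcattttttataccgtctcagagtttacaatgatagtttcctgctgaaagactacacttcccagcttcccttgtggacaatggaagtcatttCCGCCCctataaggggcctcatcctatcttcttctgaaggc
Serpine2: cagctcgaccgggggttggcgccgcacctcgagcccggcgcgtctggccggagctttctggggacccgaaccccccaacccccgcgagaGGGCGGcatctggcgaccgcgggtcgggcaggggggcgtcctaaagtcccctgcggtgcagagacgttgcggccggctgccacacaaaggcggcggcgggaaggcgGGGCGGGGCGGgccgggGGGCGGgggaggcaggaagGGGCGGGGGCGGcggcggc
F5: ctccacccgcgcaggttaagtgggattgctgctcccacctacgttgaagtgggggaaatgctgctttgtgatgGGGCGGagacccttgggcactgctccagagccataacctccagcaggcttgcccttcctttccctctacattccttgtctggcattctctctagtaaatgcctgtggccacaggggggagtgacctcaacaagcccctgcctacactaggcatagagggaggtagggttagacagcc
The F3 window held 3 matches to GGGCGG and 2 to TGANTCA. The Serpine2 window held 6 matches to GGGCGG, 2 of which share a base, and 78.8% of its bases were G or C. Tfpi and F5 each held 1 match to GGGCGG and none to TGANTCA. Of the windows not printed, the second Tfpi entry held 1 match to GGGCGG, Procr 1 match to TGANTCA and F10 none. Of all 32851 windows of this length, 32.7% held GGGCGG and 6.75% held TGANTCA. A match is a description of these letters and not a site of binding.

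Thbd encodes thrombomodulin, the endothelial receptor that changes the specificity of thrombin. The gene lies on chromosome 2 from 148404471 to 148408188 (minus strand), and its combined exon length of 3718 bases equals its span, so it is a gene without introns. Thbd was at 178, 164, 153 and 196 CPM in the control hearts and at 181, 227 and 199 CPM in the transferred hearts. Transferred heart 1 lay within the control range, and the other two lay above it. The mean was 173 ± 18.5 CPM (SD, n = 4) against 202 ± 23.1 CPM (SD, n = 3). The estimated log2 difference for Thbd was 0.23 with a 95% confidence interval from -0.005 to 0.47 (edgeR adjusted p = 0.411). Without transferred heart 2 it was 0.14. Counts of Thbd had a fractional part in 4 of 7 hearts.

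Procr encodes the endothelial protein C receptor, the partner of thrombomodulin in protein C activation (chromosome 2, 155751125 to 155755478, plus strand). It was at 7.0, 6.37, 4.99 and 6.31 CPM in the control hearts and at 6.53, 6.96 and 8.20 CPM in the transferred hearts. Only transferred heart 3 lay above the control range. For Procr the log2 difference was 0.23, with a 95% confidence interval from -0.16 to 0.62 (edgeR adjusted p = 0.645), and it was 0.13 without transferred heart 3 and 0.14 without control heart 3. The intervals of both genes include 0, and that of Procr also includes the estimate for Tfpi.

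Plat encodes tissue plasminogen activator, which cuts plasminogen to plasmin on fibrin (chromosome 8, 22757722 to 22782848, plus strand). It was at 37.5, 46.7, 46.6 and 60.0 CPM in the control hearts and at 55.9, 55.1 and 45.3 CPM in the transferred hearts. All transferred values lay within the control range. Plat had a log2 difference of 0.13 with a 95% confidence interval from -0.20 to 0.46 (edgeR adjusted p = 0.796), and within the 5 hearts whose animal identifiers hold digits only it was -0.02. With single hearts left out, Plat ranged from 0.03 without control heart 1 to 0.26 without control heart 4.

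Vwf encodes von Willebrand factor (chromosome 6, 125552948 to 125686679, plus strand). It was at 101, 94.0, 90.9 and 138 CPM in the control hearts and at 177, 381 and 159 CPM in the transferred hearts. Every transferred heart exceeded every control heart, and transferred heart 2 stood far above the other transferred hearts. The mean was 106 ± 21.9 CPM (SD, n = 4) against 239 ± 123 CPM (SD, n = 3), or 1.17 (SE 0.32) on the log2 scale (edgeR adjusted p = 0.20). Without transferred heart 2 the transferred mean was 168 CPM and the log2 fold change 0.67 (edgeR adjusted p = 0.242).

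The markers of activated endothelium are given beside Vwf. Sele, Selp, Vcam1 and Ackr1, the adhesion molecules and chemokine receptor of inflamed venules, did not overlap between the groups and were higher after transfer, as were 5.99% of all genes. The gap was small for Selp, at 3.19 CPM in transferred heart 1 and 3.16 CPM in control heart 1. For Sele the same transferred heart was at 2.68 CPM and control heart 2 at 2.19 CPM. Ackr1 was at most 0.430 CPM in control hearts and at least 1.06 CPM in transferred hearts, and Vcam1 at most 30.4 and at least 41.5 CPM. None of the 4 passed the adjusted threshold, which 0.235% of all genes passed. Transferred heart 2 had the highest sum of these markers, 126 CPM, as it had the highest Vwf. Platelets also carry Vwf, and platelet markers without Pf4, a gene that macrophages express too, summed to 86.7, 88.6 and 3.61 CPM in transferred hearts 1, 2 and 3, against 3.03 to 23.2 CPM in control hearts. The parts of activated endothelium and of platelets in the Vwf difference were not tested. Per 1000 CPM of the 13 general endothelial markers, Vwf was 29.5 to 38.1 CPM in control hearts and 49.7 to 108 CPM in transferred hearts. On the same scale Serpine2 was 21.7 to 26 against 30.1 to 38.7 CPM and Tfpi 28.1 to 45.4 against 48.5 to 61.5 CPM. Of the 7 members put on that scale these 3 did not overlap, all higher, against 3.81% of all genes in the higher, 5.76% in the lower and 9.57% in either direction. F5 and F10, whose groups overlapped in CPM, were not put on it. Thbd, F3, Procr and Plat overlapped between the groups on this scale.

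**Figure D2:**
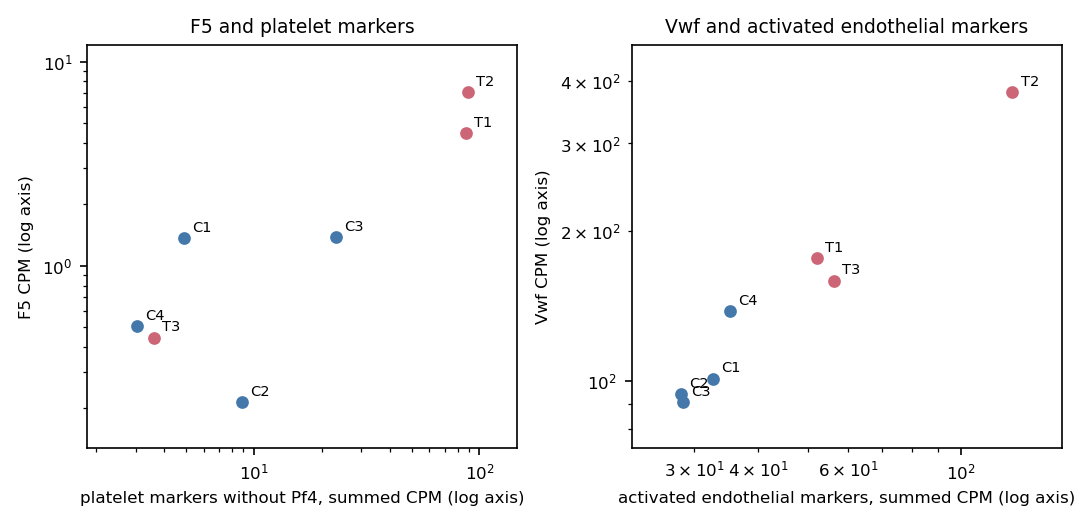
Left, F5 CPM against the summed CPM of 6 platelet markers without Pf4, and right, Vwf CPM against the summed CPM of 4 activated endothelial markers, both axes logarithmic; each point is a heart (C control, T transferred, with its number). T1 and T2 are highest on both axes on the left, T3 lies among the control hearts there, and T2 is highest on both axes on the right.

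F5 encodes factor V, the cofactor that speeds thrombin formation by factor Xa, made by the liver and also carried in platelets (chromosome 1, 164151835 to 164220277, plus strand). It was scarce, with 28, 5, 36 and 8 counts in the control hearts and 88, 151 and 9 counts in the transferred hearts. These correspond to 1.36, 0.215, 1.38 and 0.505 CPM and to 4.46, 7.10 and 0.445 CPM. Transferred hearts 1 and 2 stood above all control hearts, and transferred heart 3 lay within the control range. The mean was 0.866 ± 0.596 CPM (SD, n = 4) against 4.00 ± 3.35 CPM (SD, n = 3), and the log2 difference was 2.18 (SE 0.84, edgeR adjusted p = 0.345). Without transferred heart 3 it was 2.71 (edgeR adjusted p = 0.0486), and without transferred heart 2 it was 1.47 (edgeR adjusted p = 0.687).

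F5 was set beside the platelet markers in each heart. The 7 platelet markers in the table, led by Pf4 and Ppbp, summed to 23.6, 28.3, 45.9 and 24.9 CPM in control hearts 1 to 4 and to 142, 168 and 28.7 CPM in transferred hearts 1 to 3. All 7 had a log2 fold change above 0, as had 49.7% of all genes. At an unadjusted p under 0.05 there were 4, against 7.17% of all genes in the higher direction, and 0 passed the adjusted threshold, against 0.235% in either direction. Gp9, a subunit of the platelet receptor for von Willebrand factor, was at 0.681, 1.59, 2.42 and 0.252 CPM in control hearts and at 19.5, 19.5 and 0.593 CPM in transferred hearts. The 3 hearts with the most F5, transferred 2, transferred 1 and control 3, were also the 3 with the highest platelet sum, in the same order. The remaining hearts did not share an order. Control hearts 1 and 4 had more F5 than transferred heart 3 and control heart 2, but lower platelet sums. Control heart 1 had 1.36 CPM of F5, close to control heart 3, but a platelet sum of 23.6 against 45.9 CPM, or 4.91 against 23.2 CPM without Pf4. Hbb-bs, a red cell gene, was at 2319, 3701, 8407 and 2323 CPM in control hearts 1 to 4. It was at 7586, 1536 and 1868 CPM in transferred hearts 1 to 3. The part of platelets in the F5 difference was not tested.

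F10 encodes factor X, whose active form makes thrombin, and is made chiefly by the liver and by some macrophages (chromosome 8, 13037308 to 13056676, plus strand). It had 2, 2, 4 and 0 counts in the control hearts and 5, 19 and 3 counts in the transferred hearts, and so did not pass the filter. Control heart 3 had more counts than transferred heart 3, so the groups overlapped. Most of the transferred counts came from transferred heart 2, at 0.894 CPM, and control values were at most 0.154 CPM, at or near the floor. The mean of F10 was 0.0842 ± 0.0634 CPM (SD, n = 4) against 0.432 ± 0.404 CPM (SD, n = 3), and the transferred mean was 0.201 CPM without transferred heart 2. When all genes with at least 1 count were tested, the edgeR adjusted p of F10 was 0.362. Its neighbour F7, the gene of factor VII (13025506 to 13035809), was 0 in all control hearts and had 2, 5 and 6 counts in the transferred hearts. F7 was singled out after its values were seen, and no fold is given, since transferred heart 1 lay under the floor of 3 counts.

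Levels of different genes were compared per length, as CPM per kilobase of combined exons. In control hearts the order was Thbd with 46.4 ± 4.99 (SD, n = 4), Serpine2 with 31.2 ± 3.96, Tfpi with 29.0 ± 4.05, F3 with 21.4 ± 2.30, Plat with 18.7 ± 3.62 and Vwf with 11.7 ± 2.42. Procr followed with 3.39 ± 0.464, F5 with 0.116 ± 0.0802 and F10 with 0.0313 ± 0.0236. The ranges of neighbours overlapped from Serpine2 down to Vwf and between F5 and F10, while Thbd lay apart above, and Procr apart from both its neighbours. In transferred hearts Vwf stood in the fourth place with 26.4 ± 13.6 (SD, n = 3), followed by F3 with 24.5 ± 4.25 and Plat with 20.4 ± 2.32, and the ranges of these 3 genes overlapped. Without transferred heart 2, Vwf was at 18.5, below F3 at 22.4 and Plat at 19.8, in the same order as in control hearts. Among procoagulant messages F3 had the highest level per length in control hearts, where Thbd and Serpine2 had higher means, and Tfpi had a higher mean with an overlapping range.

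The contrast of procoagulant with anticoagulant genes was described per heart as the mean log2 CPM of F3, F5, F10 and Vwf minus that of Thbd, Procr, Tfpi and Serpine2. It was -3.36, -3.94, -3.10 and -3.83 in control hearts 1 to 4 and -2.78, -2.09 and -3.73 in transferred hearts 1 to 3. Transferred hearts 1 and 2 were above all control hearts, and transferred heart 3 was among them. The group means were -3.56 ± 0.40 (SD, n = 4) and -2.87 ± 0.82 (SD, n = 3), a difference of 0.69. Without transferred heart 2 the difference was 0.30, and without transferred heart 3 it was 1.12. With F3 and Vwf alone on the procoagulant side it was 0.23, and the values were 0.08, 0.05, 0.27 and 0.29 in control hearts and 0.22, 0.78 and 0.22 in transferred hearts. The scarce genes F5 and F10 thus carried most of the difference of 0.69. With F3 and Vwf alone, only transferred heart 2 lay above the control hearts, and the other transferred hearts lay within their range. Within the heart, the ratio of Tfpi to F3 in CPM was 3.55, 3.62, 2.98 and 2.73 in control hearts and 5.11, 4.05 and 3.32 in transferred hearts, which overlapped. The ratio of Thbd to F3 was 4.56, 4.35, 3.29 and 5.25 against 4.83, 4.25 and 4.26, also overlapping.

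**Figure D3:**
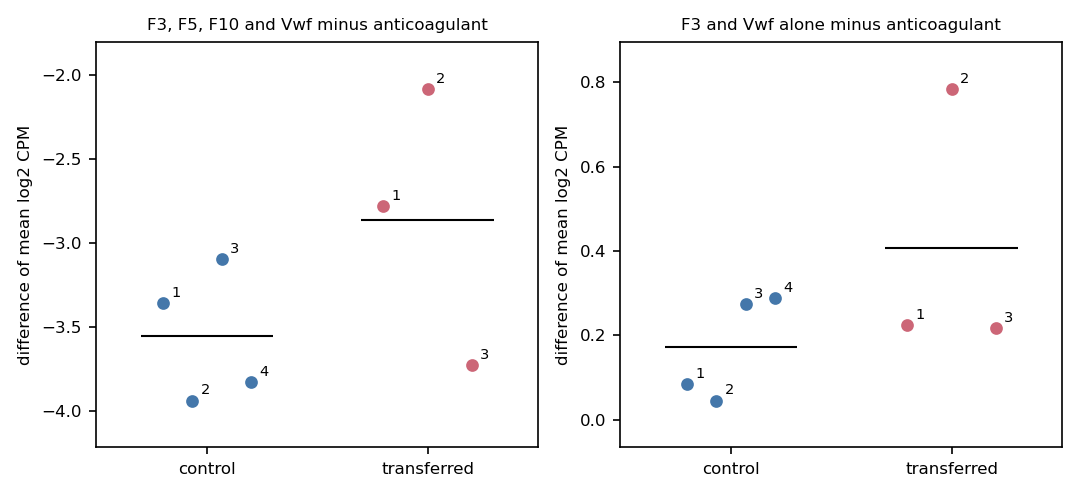
Difference of mean log2 CPM between procoagulant and anticoagulant genes (vertical axis) in control and transferred hearts (horizontal axis), with all 4 procoagulant genes on the left and F3 and Vwf alone on the right; points are hearts with their number and lines are group means. On the left transferred hearts 1 and 2 lie above the control hearts, and on the right transferred heart 2 alone does.

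Other genes of the cascade were taken from lists of 65 genes, of which 33 were in the analysed table and 23 were tested. None passed the adjusted threshold in edgeR, and 6 had an unadjusted p under 0.05, all higher in transferred hearts, where 7.17% of all genes were called in that direction, namely P2ry12, Tbxas1, Serping1, Gas6, A2m and Plaur. Of the 23 genes 17 were above 0 in log2 fold change, with a median of 0.17, where 49.7% of all tested genes were above 0 and their median was -0.002. The groups did not overlap for 3, Serping1, Gas6 and Plaur, all higher, against 11.2% of all genes in either direction and 5.99% in the higher direction. The genes of the fibrinogen chains Fga, Fgb and Fgg, and F13b, Proz and C4bp, had 0 counts in all hearts.

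Of the other procoagulant genes 4 of 5 tested were above 0, as were 49.7% of all tested genes, and 1, Ggcx, was below. P2ry12, the ADP receptor of platelets that is also found on some macrophages, was at 6.08, 5.68, 8.41 and 6.69 CPM in control hearts and at 16.7, 11.9 and 8.35 CPM in transferred hearts, which differed by 0.87 (SE 0.24) on the log2 scale (edgeR adjusted p = 0.167). Tbxas1, thromboxane synthase of platelets and macrophages, differed by 0.70 on the same scale (edgeR adjusted p = 0.243). The log2 difference was 0.21 for Vkorc1, which recycles the vitamin K needed by factors VII and X, and 0.17 for Tgm2, a tissue transglutaminase. When transferred heart 2 was left out, Tgm2 was at 0.0076 and Tbxas1 at 0.46.

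Of the other anticoagulant genes 9 of 12 tested were above 0, as were 49.7% of all tested genes. Serping1, the C1 inhibitor that blocks contact and complement proteases, was at 365, 335, 310 and 447 CPM in control hearts and at 608, 454 and 455 CPM in transferred hearts, or 0.47 (SE 0.14) on the log2 scale (edgeR adjusted p = 0.215). Gas6, a vitamin K-dependent ligand of the TAM receptors, had a log2 difference of 0.27 (edgeR adjusted p = 0.259). A2m, a broad protease inhibitor, was at 4.00, 5.97 and 0.692 CPM in transferred hearts and at 0.389 to 1.5 CPM in control hearts, high in the same 2 hearts as F5. The log2 difference of A2m was 1.67 (edgeR adjusted p = 0.329), and 1.07 without transferred heart 2. Nos3, the endothelial nitric oxide synthase that restrains platelets, was at 79.6 ± 8.40 CPM (SD, n = 4) and 70.0 ± 3.97 CPM (SD, n = 3), a log2 difference of -0.19 (edgeR adjusted p = 0.487).

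Of the other fibrinolysis genes 4 of 6 tested were above 0, which is near the 49.7% of all tested genes. Plaur, the receptor of urokinase, was at 3.45, 5.94, 5.41 and 4.86 CPM in control hearts and at 8.15, 9.31 and 7.26 CPM in transferred hearts, without overlap. Plaur differed by 0.74 (SE 0.21) on the log2 scale (edgeR adjusted p = 0.179). Plaur is also expressed by macrophages and neutrophils, whose marker sums are given above, and their part was not tested. S100a10 and Serpini1 were near 0, with a log2 difference of 0.12 for S100a10, a plasminogen receptor subunit, and -0.10 for Serpini1, neuroserpin.

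**Figure D4:**
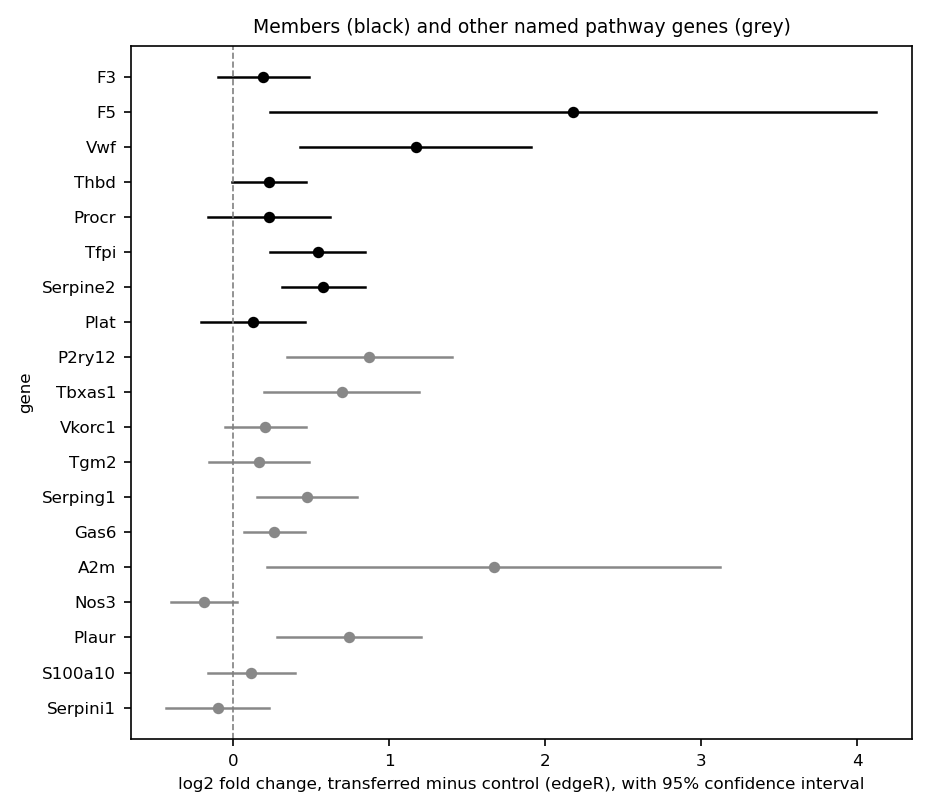
Log2 fold change of transferred against control hearts (horizontal axis) for the 8 tested members (black) and 11 other pathway genes (grey); points are edgeR estimates and bars are 95% confidence intervals. The intervals of F5, Vwf, Tfpi and Serpine2 lie above 0, and those of F3, Thbd, Procr and Plat include 0.

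For each tested member the gene with the most similar profile over the 7 hearts was sought among 5067 tested genes with a mean of at least 10 CPM, by Pearson's r of log2 CPM. Vwf was most like Fcgr2b, an inhibitory Fc receptor (r = 0.994). Thbd was most like Podxl, a sialomucin of endothelium (r = 0.986), and Serpine2 like Lyve1, a hyaluronan receptor of lymphatic endothelium and some macrophages (r = 0.980). Tfpi was most like S100a13 (r = 0.986), F5 like Cdk14 (r = 0.971), Plat like Tagln2 (r = 0.970), F3 like Hnrnpf (r = 0.968) and Procr like Lnpk (r = 0.944). These are the highest of many values over few hearts and are given as a description.

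The first control and the first transferred animal have identifiers that begin with letters, whereas the remaining 5 have digits only. When edgeR fitted this difference in identifier as a term, the log2 fold changes were 0.60 for Serpine2, 0.54 for Tfpi, 1.18 for Vwf and 2.17 for F5. Within the 5 hearts with digits only they were 0.63, 0.57, 1.34 and 2.39. The identifiers with letters covered 1 heart of each group and allowed no test.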

How the data were processed

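Messenger RNA was measured in 4 control and 3 transferred hearts. The authors deposited raw counts per gene, of which 4.63% had a fractional part, so they were treated as estimated counts and rounded. The submitters' processing notes name bcl2fastq 2.20.0.422, cutadapt 2.5, STAR 2.7.2b, featureCounts 1.6.4, DESeq2 1.22.2 and the build GRCm38.p6, without roles. All 20343 gene identifiers and start positions matched RefSeq genes of that build. An unfinished last row (1) was dropped. The rows used span chromosomes 1 to 7 and the start of chromosome 8 up to position 25129815, and genes elsewhere are not analysed here. Column totals are therefore not library depths. The use of strand in counting is not given in the sources used here.

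Genes were filtered with filterByExpr, scaled with TMM and tested with the robust quasi-likelihood test of edgeR 4.0.16 (R 4.3.3), with Benjamini-Hochberg adjustment over 7667 genes at 0.05. Log2 CPM used a prior count of 2. Confidence intervals use the t quantile of that fit. On simulated counts for 7587 genes with 200 changed by 1.5 on the log2 scale, 97% were recovered and 4.90% of 204 calls were false. The changed genes were drawn from well-expressed genes only, and 1.5 exceeds the estimate of every tested member but the scarce F5. That recovery therefore does not carry over to the members. The members, lists and tests were chosen with earlier results of these data known. Named are all members, the 4 genes of smallest p in each pathway list, the most similar gene of each member and the 2 most abundant markers of each list, and any marker at 0; some items named by this rule are not reported here. F7, the CPM ratios and the scale per endothelial markers were added after the values were seen. Alternatives were other scalings, filters and tools (DESeq2 1.42.0, limma-voom of limma 3.58.1), the identifier prefix, and leaving out hearts. Whole-count genes only, and the contrast without F5 and F10, were chosen after seeing the data.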

Additional observations from a re-analysis of the deposited data

Results flagged for a closer look

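The control hearts were checked for a value far from the other 3 in 21 results, and 1 was marked, where chance gives about 1.05. It was Tfpi, whose log2 CPM was 6.67 in control heart 4 while the remaining controls lay between 7.09 and 7.12. Without that heart the log2 fold change of Tfpi was 0.45 in place of 0.54.

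The filter on low counts removed 11 pathway genes that the table holds. No counts were found for 6 of them, and for 1, F7, all transferred hearts exceeded all control hearts. Of all tested genes 5.99% were higher without overlap, and for genes under the filter this share was not counted. Transferred heart 1 had 2 counts of F7, under the floor of 3 counts. F7 had 13 counts in the transferred group in total and 0 in the control group.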

How the results depend on the processing

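Of the tested members, 7 of 8 kept a log2 fold change above 0 under all alternatives that tested them, and Plat was -0.016 within the 5 hearts with number identifiers. Members past the adjusted threshold numbered 0 in the main test, 1 with all genes of at least 1 count (Serpine2), 2 with DESeq2 (Tfpi and Serpine2) and from 0 to 2 when hearts were left out in turn, the 2 being F5 and Tfpi without transferred heart 3. Other pathway genes numbered 0, 2 with DESeq2 (P2ry12 and Plaur) and from 0 to 2 with hearts left out, the 2 being P2ry12 and A2m without transferred heart 3. Serpini1 turned to 0.094 within the 5 hearts and ranged from -0.26 (without transferred heart 3) to 0.0033 (without transferred heart 1). S100a10 ranged from -0.022 (without transferred heart 2) to 0.20 (without transferred heart 3). Over all genes, 18 passed in the main test, 35 with column totals, 81 with all genes of at least 1 count, 252 with DESeq2, 0 with limma-voom, 0 with the prefix term, 0 within the 5 hearts, 9 with whole-count genes only and from 0 to 140 with hearts left out (140 without transferred heart 3, 27 without transferred heart 1, 1 without control heart 3 and 0 without each of the others). At an unadjusted p under 0.05, limma-voom gave 3 members and 5 other pathway genes, and 907 of all 7667 genes. Over all alternatives these unadjusted counts ran from 3 to 5 members, from 4 to 8 other pathway genes and from 658 to 1140 genes in all. Why these counts moved: the cause was not tested. The contrast of procoagulant with anticoagulant genes stayed above 0, from 0.23 without F5 and F10 to 1.12 without transferred heart 3. The labels give no pairing of control with transferred hearts, so no paired analysis was run. F10 and F7 rest on few counts at this depth.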
